A study of Mus musculus with 16 samples.

Results

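The cytosolic ribosomal protein genes of mouse liver were examined, the nuclear genes that encode the protein subunits of the ribosomes of the cytoplasm. Members were chosen by symbol: protein-coding genes named as Rpl or Rps followed by a number, the 3 stalk genes Rplp0, Rplp1 and Rplp2, and Rpsa, with a cut at a mean count of 10 over the libraries. Of 82 symbols of this form, 77 were members, out of 46078 genes in the count table. They divide into 46 genes of the large subunit and 31 of the small subunit. Of the 5 symbols left out, Rpl10l had no count in any library, and Rpl39l and Rpl3l had means of 1.06 and 5.69 counts. Rpl6l and Rps4l are annotated as pseudogenes, with means of 18.8 and 658 counts. The rule itself uses the symbol and the mean count, and no difference between groups.

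Liver RNA came from male C57BL6/J mice (the labels spell the strain C56B6/J) that spent 16 weeks on the control diet (CD) or on one rich in fat (HFD), with most calories from fat. Each diet was sampled in mice that ate freely (fed) and in mice without food for 16 h (fast), with 4 libraries in each of the 4 groups. The groups are called CD fed, CD fast, HFD fed and HFD fast. No gene was altered in any of them. The libraries hold poly(A) RNA of whole liver, so fewer cells of a type and less RNA per cell cannot be told apart, and the values are shares of the sequenced RNA and not amounts per cell.

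A cytosolic ribosome joins a small subunit, which reads the mRNA, to a large subunit, which forms peptide bonds. Each subunit has one copy of nearly every one of its proteins, and the genes lie scattered over the chromosomes, yet their mRNAs are among the most evenly abundant of a cell. The mRNAs start with a cytosine followed by a run of pyrimidines, the 5′ terminal oligopyrimidine (TOP) tract. Through it the kinase complex mTORC1 and the RNA-binding protein LARP1 control their translation and stability when nutrients change. In the liver, feeding is known to raise the synthesis of ribosomes and fasting to lower it, largely through translation and turnover of these mRNAs.

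The sequences around the transcription start were searched for elements outside the coding part, which only some of these genes hold. The windows below run from 60 bases before to 20 bases from the annotated start, in the direction of transcription, as given by RefSeq for GRCm38.p6. They are of the 4 members with the smallest p for the diet in fasted mice (Rpl38, Rpl36a, Rpl23, Rpl13a), of Rps27, the member that rose on fasting, and of Rpl10, a member that fell on fasting on both diets. Capitals mark the core CGGAAG of sites for Ets factors such as GABP (or its reverse complement CTTCCG) and a C followed by at least 4 C or T within 3 bases of the start.
Rpl38, chr11:114668520-114668599 (+): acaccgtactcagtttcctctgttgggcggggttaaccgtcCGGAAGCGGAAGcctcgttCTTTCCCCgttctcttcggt
Rpl36a, chrX:134585594-134585673 (+): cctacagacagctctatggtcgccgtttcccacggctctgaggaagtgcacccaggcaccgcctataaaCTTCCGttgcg
Rpl23, chr11:97782420-97782499 (-): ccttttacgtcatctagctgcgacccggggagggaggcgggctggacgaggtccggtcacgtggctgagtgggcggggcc
Rpl13a, chr7:45128726-45128805 (-): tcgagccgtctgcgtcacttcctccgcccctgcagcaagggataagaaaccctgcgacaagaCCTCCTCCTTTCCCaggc
Rps27, chr3:90213629-90213708 (-): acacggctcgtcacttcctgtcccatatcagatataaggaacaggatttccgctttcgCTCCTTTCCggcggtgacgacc
Rpl10, chrX:74270756-74270835 (+): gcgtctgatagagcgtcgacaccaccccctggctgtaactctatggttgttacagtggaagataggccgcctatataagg

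Over promoters of 300 bases (250 before the start), 68 starts of 57 members were found among 32851 starts of all genes. CGGAAG, searched on both strands, was in 63.2% of the members' starts and in 16.9% of all starts. GGGCGG, the core of an Sp1 site, was in 60.3% and 35.7%, and AAGATGG, the core of a YY1 site, was in 16.2% and 6.3%. The E-box CACGTG, the letters Myc binds, was in 11.8% and 7.2%, while TATAAA, the letters of a TATA box, was in 8.8% and 13.6%. The tract of C and pyrimidines at the annotated start was in 36.8% and 11.5%. An annotated start a few bases off the true one hides the tract, so this share is of the annotation used. Among 48 members with a single annotated start, the 19 with the tract and the 29 without it had close changes with the diet in fasted mice, with median log2 fold changes of -0.39 and -0.38. The 16 members with CGGAAG in the window and the 32 without it had medians of -0.37 and -0.38.

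The libraries held between 41364448 and 57583153 counts, and all 8 hepatocyte markers were found, at a summed level of 79811 to 137994 counts per 1e6 counts (CPM). A member with the median mean count had 7030 counts per library. CPM are scaled by the TMM method of edgeR, whose factors were 0.929 to 0.984 in the CD libraries and higher in the HFD libraries, up to 1.13 in HFD fast 4. The summed markers of macrophages (7 of 7 found, none at 0 in any group) were 175 to 284 CPM in CD fast and 238 to 405 in HFD fast libraries, and 266 to 457 in CD fed and 276 to 387 in HFD fed libraries. Stellate cell markers (5 of 5 found, none at 0 in any group) summed to 127 to 209 CPM in CD fast and 214 to 295 in HFD fast libraries, the one list without overlap between these groups. No list separated CD fed from HFD fed. Hepatocyte markers were 115875 to 137994 CPM in HFD fed and 79811 to 114320 in HFD fast libraries, without overlap, and overlapped in the other comparisons. Endothelial markers (5 of 5 found, none at 0) were 198 to 223 CPM in CD fed and 147 to 194 in CD fast libraries. The summed adipocyte markers reached 70.2 CPM in HFD fast 2 and 15.1 CPM in HFD fast 3, against at most 6.95 CPM in any other library, and Lep was at 0 in both CD groups. Summed pancreas markers were 6.06 to 23.2 CPM, and were lower in fasted than in fed libraries on each diet without overlap. Of the 5 pancreas markers Prss1 was at 0 in all 4 groups, and Cpa1 and Pnlip were at 0 in CD fed and HFD fast. Ctrb1 was at 0 in HFD fast too, so the sum there was Cela1 alone. The part of other cell types in the results was not tested.

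The summed level of the family was lower on the HFD in both feeding states. The 77 genes took 1.29% ± 0.047 of the counts in CD fed mice (SD, n = 4) and 1.23% ± 0.068 after fasting, and 1.14% ± 0.071 in HFD fed mice and 1.06% ± 0.031 after fasting. The libraries were at 1.34%, 1.30%, 1.23% and 1.30% in CD fed, and at 1.27%, 1.29%, 1.21% and 1.14% in CD fast. On the HFD they were at 1.08%, 1.22%, 1.08% and 1.17% when fed, and at 1.07%, 1.02%, 1.07% and 1.09% when fasted. All HFD fed libraries were below all CD fed libraries, and all HFD fast libraries below all CD fast libraries, while the shares of fed and fasted libraries overlapped on both diets. Scaled by TMM, the mean log2 CPM of the members was 7.21 ± 0.058, 7.18 ± 0.058, 6.95 ± 0.070 and 6.80 ± 0.038 in the same order of groups. On this scale fed and fasted libraries overlapped on CD but not on the HFD, at 6.91 to 7.05 when fed and 6.75 to 6.83 when fasted. The large and the small subunit went in step, at 7.16 and 7.28 in CD fed mice, 7.13 and 7.26 in fasted CD mice, 6.90 and 7.03 in HFD fed mice, and 6.75 and 6.88 in fasted HFD mice.

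**Figure D1:**
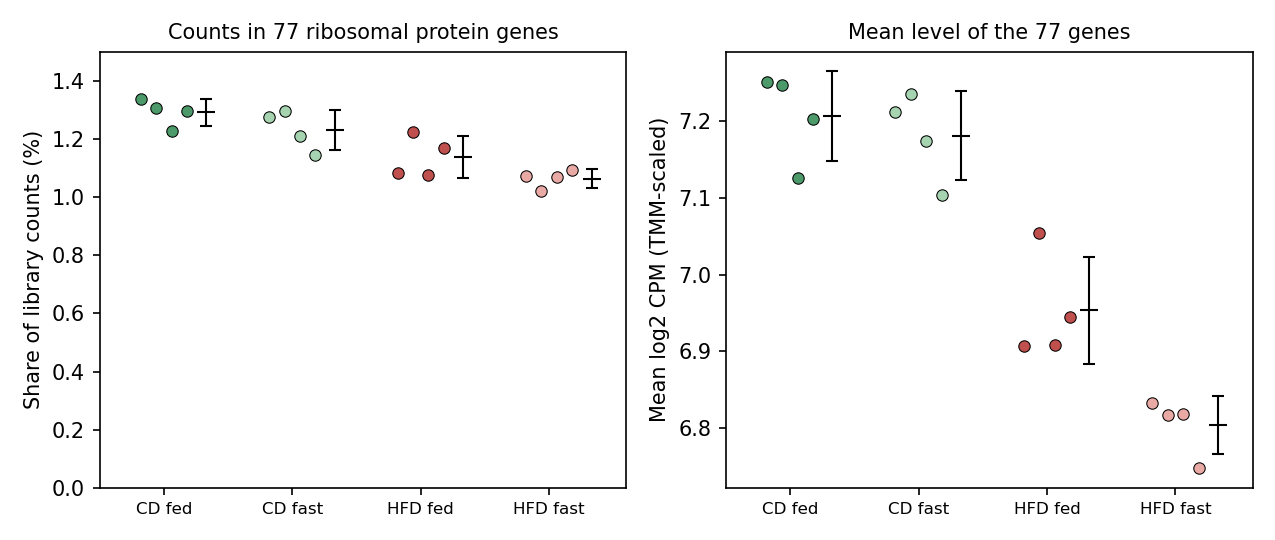
Share of each library's counts in the 77 ribosomal protein genes (left, %) and their mean log2 CPM (right) by group; points are libraries, bars the mean ± SD of 4 libraries. The HFD libraries sit below the CD libraries of the same feeding state in both plots, and HFD fast has the lowest mean share, 1.06%.

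The order was also read in the single genes that make up this sum. The mean CPM fell in the order CD fed, CD fast, HFD fed, HFD fast in 44 of the 77 members, and 26 more differed only in having CD fast above CD fed. HFD fast was the lowest group for 73 members, with Rpl22, Rpl3, Rps19 and Rps27 as the exceptions. Both CD groups had higher means than both HFD groups for 74 members, all but Rpl10, Rpl35a and Rps27l. The shares of all genes with these orders are not given, so the counts are a description only. Neighbours in this order did not always differ beyond their spread: CD fed and CD fast were within it for most members, as the tests below show. The spread between libraries was small, with a median coefficient of variation over the members of 5.10% for CD fed, 7.22% for CD fast, 5.56% for HFD fed and 5.01% for HFD fast. In CD fast the libraries CD fast 1 and CD fast 2 were the most uneven: their members deviated from their group mean with an SD of 0.130 and 0.152 on the log2 scale, against 0.040 to 0.079 in the other 14 libraries. The correlation of the deviation with the GC content of the transcript, across the 77 genes of a library, which are no replicates, was 0.342 in CD fast 2 and 0.449 in CD fed 2. It had the other sign in CD fed 1 (-0.283), CD fed 3 (-0.272) and CD fast 1 (-0.264), and lay between -0.182 and 0.187 in the other libraries.

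**Figure D2:**
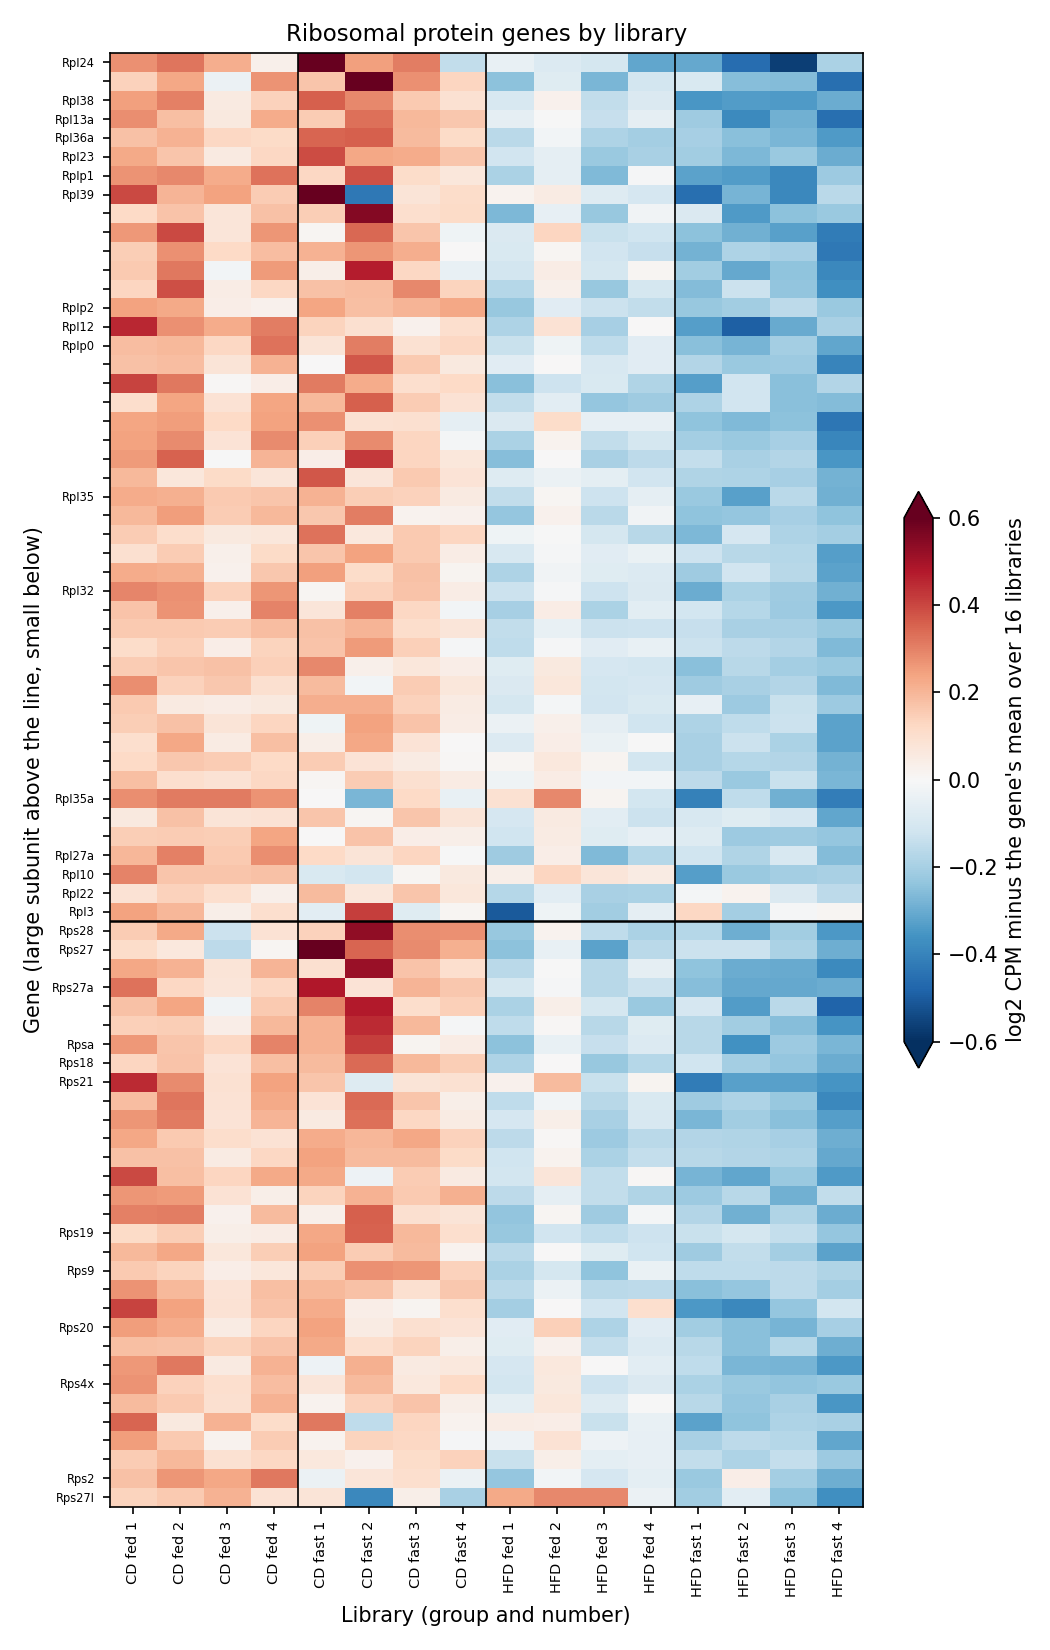
Log2 CPM of each of the 77 members in each of the 16 libraries, minus the gene's mean over the 16 libraries; large subunit genes are above the line and small subunit genes below it, each ordered by the change with the HFD in fasted mice, and a selection of rows is labelled. The CD columns are mostly above the mean and the HFD fast columns below it; CD fast 1 and CD fast 2 are the most uneven columns.

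The diet comparison in fasted mice asked how 16 weeks of HFD changed the fasted liver. Of the 77 members 69 fell on the HFD and none rose, which is 89.6% against 7.7% of all 15075 genes tested that were called in either direction and 4.65% that were called lower. These were 40 of the 46 large subunit genes and 29 of the 31 small subunit genes. Calls rest on the quasi-likelihood test of edgeR with Benjamini-Hochberg adjustment over all genes at 0.05. All 77 estimates were below 0. The median log2 fold change was -0.38, a fall by 23.2%, with quartiles of -0.43 and -0.32, and 8.15% of all genes had a lower value than this median. For 72 members (93.5%) all 4 HFD fast libraries were below all 4 CD fast libraries, against 7.45% of all genes. The summed stellate cell markers given above differed between these groups too, and their part was not tested.

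Rpl38, a large subunit protein known from mouse mutants with skeletal patterning defects (ENSMUSG00000057322, chr11:114668524-114672331, + strand, GRCm38), had the smallest adjusted p together with Rpl36a. It was at 77.9, 74.2, 67.8 and 64.8 CPM in CD fast and at 47.7, 48.2, 48.1 and 49.4 CPM in HFD fast. The groups were far apart and the HFD fast libraries almost equal. The log2 fold change was -0.56 (SE 0.071), with an adjusted p of 0.00152. Rpl36a, an X-linked large subunit gene (chrX:134585654-134588062, + strand), was at 76.0, 76.4, 68.0 and 64.4 CPM in CD fast and at 47.1 to 51.8 CPM in the 4 HFD fast libraries. Its groups did not overlap, and it fell by 0.52 on the log2 scale (SE 0.067, adjusted p = 0.00152).

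Rpl23, which besides its place in the large subunit can bind the p53 regulator Mdm2 (chr11:97777527-97782437, - strand), was at 243, 218, 216 and 208 CPM in CD fast and at 161, 154, 159 and 151 CPM in HFD fast. The lowest CD library was well above the highest HFD library, and the log2 fold change was -0.50 (SE 0.068, adjusted p = 0.00219). Rpl13a, known for blocking translation of inflammatory mRNAs once released from the ribosome (chr7:45125558-45128761, - strand), was at 250, 282, 258 and 252 CPM against 194, 173, 184 and 164 CPM. It fell by 0.54 (SE 0.074, adjusted p = 0.00219), without overlap. These 4 members were called without any one of the 16 libraries and in each of the 13 other settings of the fit, as were 57 of the 69 members in the leave-one-out fits.

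The 8 members not called for the diet in fasted mice were Rpl27a, Rpl22, Rpl10, Rpl39, Rpl35a, Rps2, Rps27l and Rpl3, with adjusted p from 0.0536 to 0.640. The widest estimate, -0.74 for Rpl24 (SE 0.189, adjusted p = 0.0271), belongs to the member with the fewest counts, 56.5 per library, whose annotated exons overlap those of Gm28037 on the same strand. Without CD fast 1, HFD fast 2 or HFD fast 3 the Rpl24 call was lost (adjusted p up to 0.0820). The number of calls in the family depended on the scaling and on the groups in the fit. Total counts as the scale put the median log2 fold change of all genes at 0.17, where TMM had 0.013. With that scale 30 members were called, against 13.9% of all genes, and the median of the members was -0.22. Relative to all genes the median of the members was -0.39 under both scales. Fitting the 8 fasted libraries alone left 10 calls, and 90 over all genes in place of 1161. Rpl38, Rpl36a, Rpl23 and Rpl13a were among the 10. Of the members named below as called for the diet in fasted mice, only Rplp2 was called in all 13 other settings. Rplp0, Rplp1, Rps18, Rps27a and Rpl35 were called in 12 of the 13. Rps20, Rps4x and Rpsa were called in 11, with adjusted p up to 0.131, 0.106 and 0.0752.

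**Figure D3:**
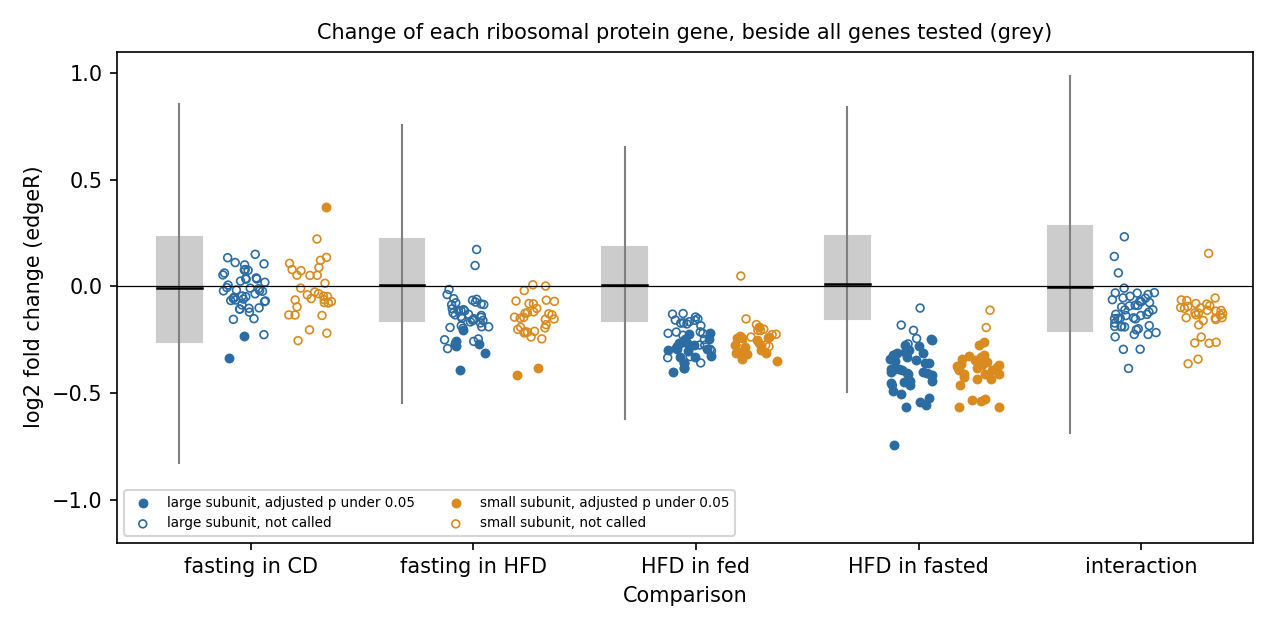
Log2 fold change of the 77 members in each comparison (dots, filled where the adjusted p is under 0.05), beside all 15075 genes tested (grey box, quartiles; line, 5th to 95th percentile; black, median). The medians of the members, -0.26 in fed and -0.38 in fasted mice, lie below the median of all genes in both diet comparisons, with Rps27l above it in fed mice. For fasting on CD their median lies close to it.

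In fed mice the same diet gave fewer calls. Of the 77 members 39 fell and none rose (50.6%), against 7.5% of all genes called in either direction and 4.22% called lower. They were 22 large and 17 small subunit genes. The estimates of 76 members were below 0, and Rps27l had +0.048. The median log2 fold change was -0.26, a fall by 16.4%, with quartiles of -0.30 and -0.21, and 16.6% of all genes were lower than it. In 63 members (81.8%) all HFD fed libraries were below all CD fed libraries, against 8.51% of all genes.

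Rpl32 of the large subunit (chr6:115805505-115808747, - strand), which shares no stretch of 100 bases with another annotated transcript, had the smallest p. It was at 156, 154, 140 and 153 CPM in the CD fed group and at 116, 126, 117 and 120 CPM in HFD fed. No library of one group came near the other, and the log2 fold change was -0.33 (SE 0.061, adjusted p = 0.00525). Rpl27a (chr7:109519147-109522367, + strand) was at 185, 199, 180 and 196 CPM against 139, 166, 134 and 143 CPM, a fall by 0.38 (SE 0.074, adjusted p = 0.00621). Here HFD fed 2 stood nearest to the CD libraries.

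The count of 39 in fed mice changed with the libraries in the fit. It was 8 without CD fed 2, 10 without HFD fed 3, 13 without HFD fed 1, 15 without CD fed 1, and 19 without CD fed 4 or without HFD fed 4, and 7 members, among them Rpl12, Rpl27a, Rpl32, Rpl35, Rplp1 and Rps13, were called in all 16 such fits. It was 6 with total counts as the scale (median -0.19) and 12 with offsets for GC content and length (median -0.19). It was 24 in a fit of the fed libraries alone, 23 with every counted gene kept, 52 by DESeq2 and 37 by limma-voom. Of all genes 8.83%, 7.21%, 7.66%, 3.7%, 11.7% and 7.28% were called in these settings, in the same order. With total counts the members' share was thus not above that of all genes called in either direction. In the fits without a library named above, 3.37% to 5.88% of all genes were called.

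The diet comparisons in fed and in fasted mice share no library. Of the 39 members called in fed mice 36 were also called in fasted mice, which is 92.3% of the first list and 52.2% of the second. The first share is near the 89.6% of all members called in fasted mice. Rpl22, Rpl27a and Rps2 were called in fed mice alone, and Rpl10, Rpl3, Rpl35a, Rpl39 and Rps27l in neither. The estimate was lower in fasted than in fed mice for 73 of the 77 members. Across the members the estimates of the 2 comparisons had an r of 0.411, a description over 77 genes that share libraries.

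**Figure D4:**
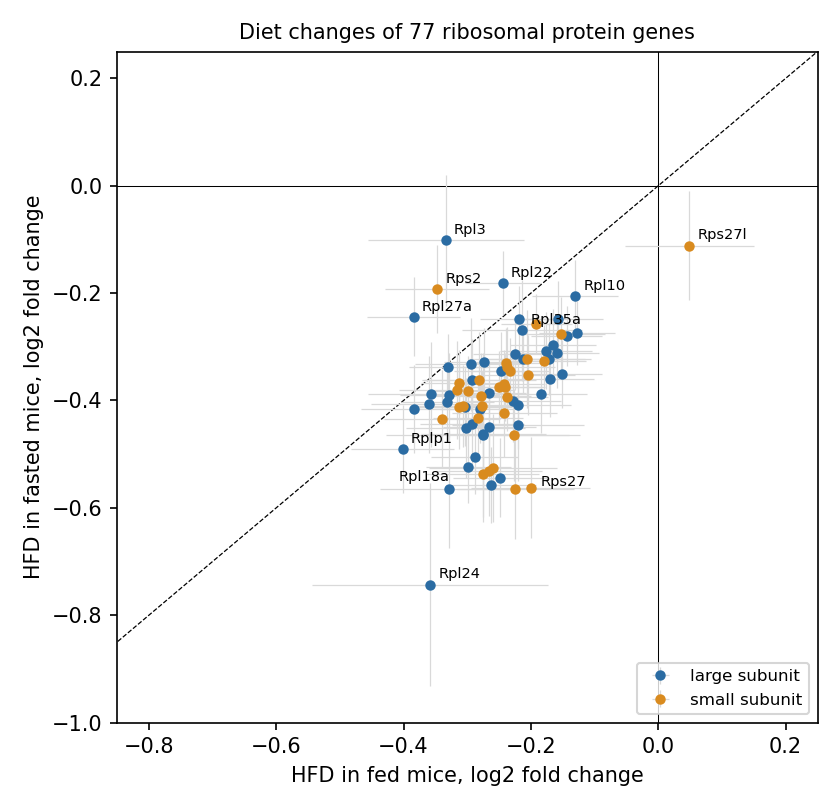
Log2 fold change with the HFD in fed mice (x axis) and in fasted mice (y axis) for the 77 members, with SE bars; the dashed line marks equal change. All but 4 members lie below the line, and Rps27l lies alone to the right of 0 on the x axis.

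The difference itself, the interaction of diet and feeding state, was called for none of the 77 members by edgeR, against 2.59% of all genes. At an unadjusted p under 0.05 there were 8 members, all with a larger fall in fasted mice: Rpl38, Rpl13a, Rps27, Rps28, Rpl36a, Rpl23, Rps27a and Rpl18. The share of all genes at this unadjusted threshold is not given, so the count of 8 is a description only. Rpl38 had the smallest p, with an interaction estimate of -0.29 (SE 0.100, adjusted p = 0.121), and Rpl13a followed with -0.29 (SE 0.105, adjusted p = 0.132). DESeq2 called these same 2 genes of the 77, but it called 8.29% of all genes, a larger share. By limma-voom no member was called. The median interaction estimate was -0.13, with 73 members below 0. With total counts as the scale it was -0.041, with 22 members above 0, where the median of all genes was 0.087. The larger fall in fasted than in fed mice was thus not called for any single member by edgeR.

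Fasting of CD mice gave few calls among the members. Of the 77 members 1 rose and 2 fell, against 25.2% of all genes called. The median log2 fold change was -0.034, with 48 estimates below 0. An unadjusted p under 0.05 was found for 10 members, a count given without a share of all genes. The endothelial and pancreas markers given above did not overlap between these groups, and their part was not tested. The member that rose was Rps27, a small subunit protein with a zinc finger (chr3:90212522-90213651, - strand). It was at 118, 114, 97.9 and 110 CPM in the CD fed group and at 170, 139, 133 and 126 CPM in CD fast. All fasted libraries were above all fed libraries, and CD fast 1 was far above the rest. The log2 fold change was +0.37 (SE 0.094, adjusted p = 0.00998), and the call held without any one library. Of the stretches of 100 bases in its transcript 98.4% are found also in Gm17241 or Rps27rt, so its reads cannot be told apart from theirs. Rps27rt had 40 counts per library.

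The members that fell with fasting on CD were Rpl10 and Rpl35a. Rpl10, an X-linked large subunit protein that joins the ribosome last, in the cytoplasm (chrX:74270812-74273135, + strand), was at 441, 402, 403 and 404 CPM in the CD fed group and at 336, 332, 361 and 373 CPM in CD fast. The groups did not overlap. The log2 fold change was -0.23 (SE 0.068, adjusted p = 0.0198), and without CD fed 1, CD fast 1 or CD fast 2 the call was lost, with an adjusted p up to 0.0646. Rpl35a, a large subunit gene mutated in some patients with Diamond-Blackfan anaemia (chr16:33056453-33060189, + strand), was at 117, 120, 120 and 116 CPM against 96.6, 79.8, 105 and 93.5 CPM. It fell by 0.33 (SE 0.094, adjusted p = 0.0170), without overlap, and the call was lost without CD fast 2 (adjusted p = 0.0553). Without CD fast 2 there was 1 member called, against 18.7% of all genes, and without HFD fast 2 there were 5, against 25%. DESeq2 and the total count scale each called 6 members, and the offsets for GC content and length gave 5. Of all genes these settings called 28.3%, 24.4% and 25.3%.

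Fasting of HFD mice lowered some members. Here 8 fell and none rose (6 large, 2 small subunit genes). By edgeR with TMM scaling this is 10.4% of the members, near the 8.86% of all genes called in either direction, with 4.07% of all genes called lower. The median log2 fold change was -0.15, a fall by 9.57%, and 27.4% of all genes were lower than it. The estimates of 73 members were below 0, and 36 had an unadjusted p under 0.05, a count given without a share of all genes. In 38 members (49.4%) all HFD fast libraries were below all HFD fed libraries, against 8.66% of all genes. The hepatocyte and pancreas markers given above also did not overlap between these groups, and their part was not tested. The 8 were Rps21, Rpl10, Rpl35a, Rps27l, Rpl13a, Rpl27, Rpl26 and Rpl38. Rpl10 and Rpl35a were thus called with fasting on both diets, in libraries that the 2 comparisons do not share; the Rpl35a call on the HFD was lost without HFD fed 1, HFD fed 2 or HFD fast 1 (adjusted p up to 0.0595).

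Rps21, a small subunit protein (chr2:180257377-180258445, + strand), had the smallest p of them. It was at 66.8, 74.8, 59.9 and 66.4 CPM in HFD fed and at 49.1, 52.4, 52.3 and 51.4 CPM in HFD fast. The fasted libraries were close together and all below the fed ones, with a log2 fold change of -0.38 (SE 0.083, adjusted p = 0.0116). Rpl10 was at 367, 392, 378 and 371 CPM against 285, 307, 311 and 313 CPM and fell by 0.31 (adjusted p = 0.0123). Rpl35a was at 103, 118, 97.5 and 89.5 CPM against 72.8, 86.8, 78.9 and 72.4 CPM and fell by 0.39 (SE 0.094, adjusted p = 0.0200). In both genes the lowest fed library was above the highest fasted one.

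Rps21 and Rpl10 were called without any one of the 16 libraries. The number of calls for fasting on the HFD was 2 without HFD fed 1 or HFD fed 2 and 3 without HFD fast 1 or HFD fast 3. It was 4 without HFD fed 3 or HFD fast 4. In these fits 3.31% to 6.93% of all genes were called. The number of members called was 20 by DESeq2 and 23 with offsets for GC content and length, where 13.2% and 9.9% of all genes were called. It was 5 in a fit of the HFD libraries alone (6.95% of all genes). With the total count scale or with every counted gene kept it was 4 (8.78% and 3.72% of all genes).

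Among members with a special place on the ribosome, the stalk proteins Rplp0, Rplp1 and Rplp2, which recruit the elongation factors, fell with the diet in both feeding states. Rplp1 (chr9:61913284-61914542, - strand) was at 251, 255, 243 and 261 CPM in the CD fed group and at 183, 201, 174 and 207 CPM in HFD fed. It was at 227, 272, 225 and 218 CPM in CD fast and at 167, 165, 159 and 179 CPM in HFD fast. The HFD libraries were below the CD libraries throughout, with log2 fold changes of -0.40 (SE 0.081, adjusted p = 0.00855) in fed and -0.49 (adjusted p = 0.00502) in fasted mice. Its partner Rplp2 fell by 0.28 (SE 0.062, adjusted p = 0.0138) and by 0.42 (adjusted p = 0.00347). Rplp0, the base of the stalk and a common reference gene in PCR, fell from 380 ± 22 CPM in CD fed to 308 ± 13 in HFD fed (SD, n = 4). Its log2 fold change was -0.30 (SE 0.073, adjusted p = 0.0210). In fasted mice it fell by 0.41 (adjusted p = 0.00651), from 366 to 275 CPM. The Rplp2 call in fed mice was lost without CD fed 2 (adjusted p = 0.0555), and the Rplp0 call without CD fed 2, CD fed 4, HFD fed 1 or HFD fed 3 (up to 0.0698). None of the stalk genes was called for fasting on either diet.

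Rpsa, the small subunit protein also known as the laminin receptor, averaged 368 and 360 CPM in fed and fasted CD mice and 291 and 266 CPM in fed and fasted HFD mice. It fell with the diet by 0.34 in fed (SE 0.091, adjusted p = 0.0338) and by 0.43 in fasted mice (adjusted p = 0.0125). In fed mice the adjusted p was up to 0.0942 without one of CD fed 1, 2 or 4 or HFD fed 1, 3 or 4. Rps27a is made as a fusion with ubiquitin, so its mRNA also supplies ubiquitin. It was at 227, 173, 188 and 182 CPM in CD fast and at 137, 132, 132 and 133 CPM in HFD fast. CD fast 1 stood high, the groups did not overlap, and the log2 fold change was -0.53 (SE 0.084, adjusted p = 0.00413). In fed mice it was -0.27 (adjusted p = 0.0644), which misses the threshold.

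**Figure D5:**
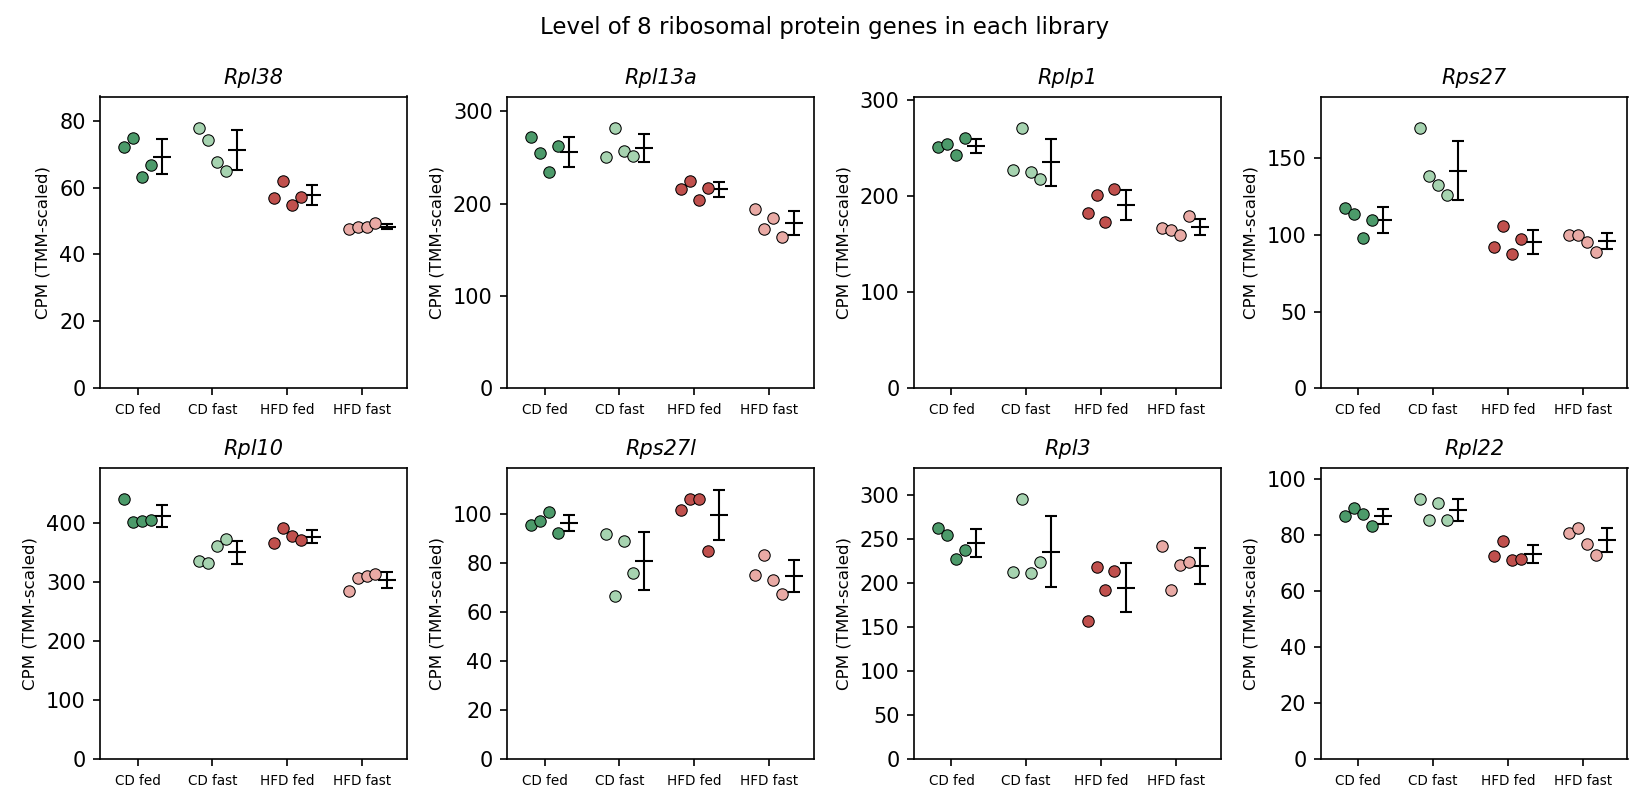
CPM of 8 members (Rpl38, Rpl13a, Rplp1, Rps27, Rpl10, Rps27l, Rpl3, Rpl22) in each library, with mean ± SD of 4 libraries. Rpl38, Rpl13a and Rplp1 step down from the CD to the HFD groups; Rps27 is highest in CD fast; Rpl10 and Rps27l are lower in the fasted groups; Rpl3 and Rpl22 have lower means in HFD fed than in HFD fast.

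A few members departed from the order of the family. Rps27l, a copy of Rps27 that p53 is known to induce (chr9:66946086-66949516, + strand), was at 95.6, 97.2, 101 and 92.6 CPM in the CD fed group and at 102, 106, 106 and 85.1 CPM in HFD fed. These groups overlapped, and the diet estimate in fed mice was +0.048 (adjusted p = 0.824). In CD fast it was at 91.8, 66.6, 89.2 and 76.2 CPM and in HFD fast at 75.4, 83.4, 73.4 and 67.5 CPM. The fasted libraries were below the fed ones on the same diet. Fasting on the HFD lowered Rps27l by 0.41 on the log2 scale (SE 0.102, adjusted p = 0.0215). This call was lost without one of HFD fed 1, 2 or 3 or HFD fast 1, 3 or 4 (adjusted p up to 0.0634). On CD the fasting estimate was -0.25 (adjusted p = 0.0790). Rps27 and Rps27l thus had estimates of opposite sign for fasting on CD, +0.37 and -0.25, of which the first was called.

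Rpl3, which lies at the peptidyl transferase centre, had the highest coefficient of variation of the members in HFD fed, 14.3%. On CD the libraries were at 262, 255, 228 and 238 CPM when fed and at 212, 295, 211 and 224 CPM when fasted. On the HFD they were at 157, 218, 192 and 213 CPM when fed and at 242, 192, 221 and 224 CPM when fasted. Only CD fed and HFD fed did not overlap, and no comparison of Rpl3 was called; the diet estimates were -0.33 in fed (SE 0.122, adjusted p = 0.110) and -0.10 in fasted mice (adjusted p = 0.640). Rpl22, which has a copy in Rpl22l1, averaged 86.7 ± 2.8 CPM in CD fed mice and 73.2 ± 3.2 CPM in HFD fed mice. It fell with the diet in fed mice by 0.24 (adjusted p = 0.0220), a call lost without CD fed 2, HFD fed 1, HFD fed 3 or HFD fed 4 (adjusted p up to 0.0739), while in fasted mice the estimate was -0.18 (adjusted p = 0.0719), at 88.8 and 78.4 CPM. Rps2, near the mRNA entry of the small subunit, averaged 436 CPM in fed and 374 in fasted CD mice, and 343 in fed and 328 in fasted HFD mice. It fell with the diet in fed mice by 0.35 (SE 0.082, adjusted p = 0.0195), a call lost without CD fed 2, HFD fed 1 or HFD fed 3 (adjusted p up to 0.0614), and its estimate for fasting on CD was -0.22 (adjusted p = 0.0617).

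Of the other copy pairs of the family, Rps4x was a member and Rps4l was not. Rps4x (X chromosome) averaged 258 and 247 CPM in fed and fasted CD mice and 219 and 197 CPM in fed and fasted HFD mice. It fell with the diet in fed (-0.24, adjusted p = 0.0350) and in fasted mice (-0.33, adjusted p = 0.00897). The call in fed mice was lost without one of CD fed 1, 2 or 4 or HFD fed 1, 3 or 4, with an adjusted p up to 0.106. Rps4l had a mean of 13.6 CPM over the libraries and was called in no comparison. Rpl39 was at 96.3, 46.0, 65.4 and 66.7 CPM in CD fast, the widest relative spread of any member in a group with a coefficient of variation of 30.2%. Its diet estimates of -0.28 and -0.46 (adjusted p = 0.302 and 0.0736) were not called.

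Compared per kilobase of the annotated principal transcript, levels ranged widely. The median was 180 CPM per kb, with 175 for the large and 185 for the small subunit. Rpl10 was highest at 452 CPM per kb, followed by Rplp1 at 424 and Rps18 at 382. The lowest was Rpl24 at 1.73 CPM per kb, then Rps20 at 29.4 and Rpl35 at 79.9. For Rps20 the principal transcript is 3706 bases long, and for Rpl24 the overlap with Gm28037 makes the count uncertain. Rps18, Rps20 and Rpl35 all fell with the diet in fasted mice, by 0.43 (adjusted p = 0.00475), 0.35 (adjusted p = 0.0130) and 0.39 (adjusted p = 0.00347).

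Ribosomal protein genes have many processed pseudogenes, and reads from identical stretches could be counted for either. A member shared a median of 41.4% of its stretches of 100 bases with other annotated transcripts, and the share ranged from 0% for 6 members, among them Rpl22, Rpl32, Rps21, Rps27l and Rps3, to 98.4% for Rps27. The 6 without shared stretches had a median log2 fold change of -0.33 with the diet in fasted mice, with 4 called. The 36 with some sharing under 50% had -0.40 with 33 called, and the 35 with more had -0.36 with 32 called. In fed mice the medians were -0.24, -0.26 and -0.25, and 2, 21 and 16 were called. With the counts of such pseudogenes added to their members, 38 members were called for the diet in fed and 68 in fasted mice. Of all genes 7.49% and 7.69% were called in that setting.

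Of 7 ribosomal protein genes with other names, 4 fell with the diet in fasted mice, among them Rps3a1 (-0.32, adjusted p = 0.0124), Fau, which encodes a small subunit protein fused to a ubiquitin-like one (-0.53, adjusted p = 0.0150), and Rpl36al (-0.26, adjusted p = 0.0458). The 4 are 57.1% of the list, against 7.7% of all genes, and its median was -0.48. None of the 7 was called for the diet in fed mice, against 7.5% of all genes. Rpl36al, an autosomal copy of Rpl36a, fell with fasting by 0.45 on CD (adjusted p = 0.000615) and by 0.60 on the HFD (adjusted p = 0.000419). It went from 102 ± 3.5 to 75.1 ± 7.0 CPM on CD and from 95.3 ± 6.0 to 62.8 ± 4.0 CPM on the HFD (SD, n = 4). Rpl36a was not called for fasting on either diet, with 66.4 and 71.2 CPM on CD and 54.0 and 49.5 CPM on the HFD; the copies were not tested against each other.

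Of 24 genes of translation elongation and other TOP mRNAs, 6 fell and none rose with the diet in fasted mice (25%, against 7.7% of all genes), with a median of -0.22. Rack1, which sits on the small subunit, fell by 0.37 (adjusted p = 0.00649), the elongation factor subunit Eef1b2 by 0.35 (adjusted p = 0.00750), Tpt1 by 0.41 (adjusted p = 0.0143) and the poly(A)-binding protein Pabpc1 by 0.28 (adjusted p = 0.0199). In fed mice none was called, against 7.5% of all genes, with a median of -0.12. On CD, fasting raised 4 of the 24 (16.7%, against 25.2% of all genes), with Hnrnpa1 at +0.62 (adjusted p = 0.000855) and Nap1l1 at +0.77 (adjusted p = 0.00180), and lowered none. The splicing factor Hnrnpa1 rose on the HFD as well, by 0.43 (adjusted p = 0.0230), where Rack1 fell by 0.22 (adjusted p = 0.0437).

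Making a ribosome also takes many assembly factors. Of 60 ribosome biogenesis genes 5 fell with the diet in fasted mice (median -0.092) and 1 rose in fed mice (median 0.018), or 8.33% and 1.67% against 7.7% and 7.5% of all genes; the first share is close to that of all genes and the second below it. Those that fell included Ubtf, a factor of RNA polymerase I (-0.29, adjusted p = 0.0383), and Nop10, of the box H/ACA particle (-0.42, adjusted p = 0.0210). The gene that rose was Nmd3, the export adaptor of the large subunit (+0.35, adjusted p = 0.0487). Fasting on CD raised 10 of the 60 and lowered 5, which is 25% and close to the 25.2% of all genes, with Gnl2 at +0.47 (adjusted p = 0.000143) and Mdn1 at -0.37 (adjusted p = 0.00443). Fasting on the HFD lowered 3 (5.0%, against 8.86%). For Ubtf the interaction was called, at -0.47 (adjusted p = 0.0407). Of 25 initiation factor genes 5 fell with the diet in fasted mice (20%, against 7.7% of all genes) and none was called in fed mice. Eif1, which guards start codon choice, fell by 0.52 (adjusted p = 0.00502); on CD it had risen with fasting by 0.38 (adjusted p = 0.00572).

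Of 33 genes around the TOR kinase, 2 rose and 2 fell with the diet in fasted mice (12.1%, against 7.7% of all genes). Mlst8, a subunit of both TOR complexes, rose by 0.54 (adjusted p = 0.00579) and Castor2, a partner of the arginine sensor Castor1, by 0.58 (adjusted p = 0.0296). Larp1 fell by 0.30 (adjusted p = 0.0209) and the mTORC1 inhibitor Akt1s1 by 0.34 (adjusted p = 0.0144). In fed mice Mtor rose, from 66.5 ± 2.5 to 88.3 ± 1.6 CPM (+0.41, adjusted p = 0.0244), and it rose with fasting on CD to 90.6 ± 12 CPM (+0.45, adjusted p = 0.00534). With fasting on CD 4 of the 33 rose and 5 fell, which is 27.3% and close to the 25.2% of all genes. Castor2 and Mlst8 fell, by 0.90 and 0.47 (adjusted p = 0.000597 and 0.00213), and their interactions were called at +0.94 and +0.61 (adjusted p = 0.0292 and 0.0248). Rptor, Rps6kb1, Eif4ebp1, Eif4ebp2, Eif4ebp3 and Myc were called in no comparison. Myc averaged 7.09 ± 8.3 CPM in CD fed mice and 6.91 ± 6.0 CPM in fasted HFD mice, a spread as large as the level. These are mRNA levels, and the activity of the kinase was not measured.

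The proteins of the mitochondrial ribosome are encoded by a separate set of nuclear genes. Of 77 tested, 12 fell with the diet in fasted mice (15.6%, against 7.7% of all genes; median -0.17) and none rose, while in fed mice 1 rose and 1 fell (2.6%, against 7.5%; median -0.0079). Fasting on CD raised 13 of them and lowered 5 (23.4%), and fasting on the HFD lowered 8 (10.4%), shares near the 25.2% and 8.86% of all genes. In fed mice the median of the cytosolic members was -0.26.

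The members varied together over the 16 libraries. The r of a member's log2 CPM with the mean of the other members had a median of 0.923, and was highest for Rpl35 at 0.977. It was lowest for Rps27l at 0.287, followed by Rpl3 at 0.509, Rpl39 at 0.629, Rpl10 at 0.650 and Rpl35a at 0.654. These 5 genes were the same that were called for the diet in neither feeding state. Group means were not removed, and the mean of the members carries the diet difference. The match is thus partly a restatement of the diet result. Among genes outside the rule and the lists, the 10 with the closest pattern included Alkbh7, Atoh8, Rce1, Smagp, Ndufa6, Srgap3, Nelfe, Pmf1 and Slc13a2, with r from 0.897 for Slc13a2 to 0.939 for Alkbh7 over 16 libraries. These r describe libraries that share their groups, and no test was made of them.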

How the data were processed

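RNA-seq counts of 16 liver libraries were used. The deposited values are raw counts per gene, which the authors made from poly(A) libraries (NEBNext Ultra II) with TopHat2 2.0.11 on GRCm38 (strand-specific alignment, fr-firststrand, with iGenomes annotation) and featureCounts; the submitters' processing notes also name CASAVA 1.8.4. The annotation release and the settings of featureCounts for strand, pairs and reads with several matches are not given in the sources used here. The labels number the libraries as separate samples, and p-values measure the spread between these. Gene IDs were matched to GENCODE vM21 for 45143 of 46078 genes. No column was left unused.

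Counts were tested with edgeR 4.0.16 (R 4.3.3): quasi-likelihood test, TMM scaling, filterByExpr (15075 genes, all 77 members), a coefficient per group, 12 residual degrees of freedom, Benjamini-Hochberg adjustment over all genes, threshold 0.05. SE is the estimate divided by the root of F. Log2 CPM have a prior count of 2. Alternatives were DESeq2 1.42.0, limma-voom (limma 3.58.1), other scalings, filters, groups in the fit, a replicate block, GC and length offsets, and leaving out each library. The scripts were tested on simulated data. Members named were the 4 of smallest p in each direction of each comparison, 3 of each sign for the interaction, the 3 highest and lowest per length, copy pairs, stalk genes, Rps27a and Rpsa (some genes are not reported here); short lists of called or uncalled members are given in full, chosen after their values were seen. Genes of the lists were named when called with a mean of at least 100 counts, at most 4 a list and comparison, besides the fixed regulators. The members and lists were chosen with earlier results of these data known. Shared stretches are of 100 bases in annotated transcripts, on either strand. Intervals from so many counts are narrow, so the spread between libraries sets the precision.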

Additional observations from a re-analysis of the deposited data

Results flagged for a closer look

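In 5 of 132 sets of 4 values (named members and summary levels by group), 1 library stood apart from the other 3 by Dixon's 95% limit for 4 values; chance gives about 1 in 20. Rpl10 was at 441 CPM in CD fed 1 and at 402 to 404 in the other CD fed libraries. In CD fast 2, Rpl3 was at 295 CPM (others 211 to 224) and Rplp1 at 272 CPM (others 218 to 227). In HFD fast 4 the mean log2 CPM of the large subunit genes was 6.70 (others 6.77 to 6.78) and Rps9 was at 188 CPM (others 191 to 192). HFD fast 4 was also the library with the highest TMM factor, 1.13.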

How the results depend on the processing

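No median of the members changed sign under any alternative, and no named member's called change reversed. Calls for fasting on CD were 3, and 6 with DESeq2, 6 with the total count scale, 5 with GC and length offsets and 6 with these plus the replicate block, and 1 to 5 when leaving out a library. For fasting on the HFD they were 8, and 20, 4, 23 and 22 in the same settings, 4 with every counted gene kept, 5 with only the groups compared, and 2 to 12 when leaving out a library. For the diet in fed mice they were 39, and 6 (total count), 23 (every counted gene), 24 (only the groups compared), 12 (GC and length), 13 (these plus the block) and 8 to 46 (a library left out); the median of -0.26 was -0.19 with total counts, with GC and length offsets, and with these plus the block. For the diet in fasted mice they were 69, and 30 (total count, median -0.22), 10 (only the groups compared) and 59 to 69 (a library left out), with 59 without HFD fast 4. Of the pair of libraries with the highest adipocyte marker sums, leaving out HFD fast 2 gave 67 and leaving out HFD fast 3 gave 61. When a library was left out, 18.7% to 26% of all genes were called for fasting on CD and 3.31% to 10% for fasting on the HFD. For the diet these shares were 3.37% to 8.29% in fed and 3.51% to 8.9% in fasted mice. With the offsets plus the block they were 26.6% for fasting on CD, 11% for fasting on the HFD and 7.62% for the diet in fed mice. The interaction had 0 calls, and 2 with DESeq2, where 8.29% of all genes were called. The interaction median of -0.13 was -0.041 with total counts. With total counts the calls over all genes for the diet in fasted mice were 250 lower and 1851 higher, against 701 and 460 with TMM, and in fed mice 415 and 916 against 636 and 495. For fasting they were 2045 lower and 1628 higher on CD, against 1731 and 2066, and 429 and 894 on the HFD, against 614 and 721. The cause of these differences was not tested, beyond fewer libraries in the fit where some were left out.

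The labels give the groups the same replicate numbers, but same-numbered libraries deviated together with r from -0.243 to 0.662 (median 0.058), so the numbers were not read as pairs. With the replicate block 4, 9, 36, 69 and 0 members were called for fasting on CD, fasting on the HFD, the diet in fed mice, the diet in fasted mice and the interaction before any offset, and 5 of 16 libraries were closest to one of their own number. With the related genes added the share was 1.35% in CD fed and 1.11% in HFD fast. With mitochondrial and the 20 most abundant genes out of the total it was 1.74%, 1.61%, 1.54% and 1.38% in CD fed, CD fast, HFD fed and HFD fast. Adding pseudogene reads was chosen after seeing the data. Depth limits only Rpl24 among the members.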
